A study of Mus musculus with 14 samples.

Results

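The 77 genes described here encode proteins of the mitochondrial ribosome. They are all genes whose array probe carries a single gene symbol made of Mrpl or Mrps, a number and an optional letter, and they are 77 of the 19938 genes that could be tested. Each gene was read from its probe of highest mean, and 8 of the 77 have a second probe. By the known structures 50 of them belong to the large subunit and 26 to the small subunit, with Mrps18a and Mrps30 counted in the large subunit, where their proteins sit in spite of their names. Mrps36 was given no subunit, since its protein is now known as a component of the 2-oxoglutarate dehydrogenase complex.

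Liver free of tumour was taken from female mice aged 14 months. The 6 Mdr2-KO/IL6-KO liver samples lacked both Mdr2 and IL6, the 5 Mdr2-KO samples lacked Mdr2, and the 3 wild-type samples were C57BL/6. Each liver sample was hybridised to 1 Affymetrix mouse gene array. Mdr2, now named Abcb4, moves phosphatidylcholine across the canalicular membrane of hepatocytes into bile, and its absence in mice leads to chronic bile duct injury followed by liver tumours. IL6 is a cytokine through which inflammation switches on acute phase genes in hepatocytes. The strain background of the knockouts is not in the labels, so a strain difference and the loss of the targeted genes cannot be told apart.

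Mitochondrial DNA encodes a few hydrophobic subunits of the oxidative phosphorylation complexes together with the ribosomal and transfer RNAs used to translate them. Every protein of the ribosome that makes those subunits is encoded in the nucleus, made in the cytosol and imported. Some of these proteins have a counterpart in bacteria and surround the conserved core (the decoding centre, the peptidyl transferase centre and the exit tunnel), and others arose in mitochondria and coat the outside, including the central protuberance and the membrane-facing side. Hepatocytes are rich in mitochondria, and their respiration rests on this translation.

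Promoters are shown for 4 members, the first 2 with an entry in the table among those that were higher in Mdr2-KO than in wild type (Mrpl42 and Mrps12) and the first 2 among those that were lower (Mrpl47 and Mrpl23). Each window covers 250 bases before and 50 bases after the gene's start, is taken from RefSeq on GRCm38.p6, and is written 5′ to 3′ on the gene's strand. Capitals mark motif matches on either strand.
Mrpl42 (chr10:95501900-95502199, minus strand): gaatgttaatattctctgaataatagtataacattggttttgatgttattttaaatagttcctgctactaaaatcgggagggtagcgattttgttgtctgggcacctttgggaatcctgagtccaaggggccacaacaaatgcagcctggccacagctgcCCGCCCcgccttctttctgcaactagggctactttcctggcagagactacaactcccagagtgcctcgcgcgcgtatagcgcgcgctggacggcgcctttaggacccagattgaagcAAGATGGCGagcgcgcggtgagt
Mrps12 (chr7:28741772-28742071, minus strand): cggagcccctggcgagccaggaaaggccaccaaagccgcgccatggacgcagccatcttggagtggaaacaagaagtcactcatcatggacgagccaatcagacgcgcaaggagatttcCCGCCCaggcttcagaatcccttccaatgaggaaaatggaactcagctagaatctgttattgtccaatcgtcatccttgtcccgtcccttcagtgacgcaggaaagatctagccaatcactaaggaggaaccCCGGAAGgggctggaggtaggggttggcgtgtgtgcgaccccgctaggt
Mrpl47 (chr3:32736706-32737005, minus strand): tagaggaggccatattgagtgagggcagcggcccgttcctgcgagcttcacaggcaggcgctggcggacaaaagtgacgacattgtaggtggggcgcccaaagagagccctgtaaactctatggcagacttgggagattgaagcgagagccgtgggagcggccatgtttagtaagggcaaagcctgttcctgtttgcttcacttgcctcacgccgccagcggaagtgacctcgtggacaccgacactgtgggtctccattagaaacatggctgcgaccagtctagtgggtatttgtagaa
Mrpl23 (chr7:142532782-142533081, plus strand): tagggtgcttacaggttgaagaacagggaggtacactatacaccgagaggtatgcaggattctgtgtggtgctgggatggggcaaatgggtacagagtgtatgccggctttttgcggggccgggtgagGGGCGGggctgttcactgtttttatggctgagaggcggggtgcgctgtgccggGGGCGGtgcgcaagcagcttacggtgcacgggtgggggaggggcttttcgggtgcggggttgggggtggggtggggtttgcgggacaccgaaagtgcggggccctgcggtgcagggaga
In Mrpl42 the YY1 core begins 27 bases after the start base, inside the transcribed part. In Mrps12 the ETS core begins 1 base after the start base. Mrpl23 holds 2 matches to the SP1 box, and Mrpl47 holds none of the 4 motifs.

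The motifs searched were the ETS core CCGGAAG (bound by GABP and other ETS factors), the NRF1 core GCGCATGCG, the YY1 core AAGATGGCG and the SP1 box GGGCGG, on both strands. None of the 4 letter strings contains another, and the NRF1 core overlaps its own reverse complement. A promoter entry was found for 68 members, with 74 windows in all. The ETS core was in 33.8% of the members' windows and 12.1% of the 19177 windows of all genes tested. For the NRF1 core the shares were 9.46% of member windows and 2.54% of all windows, and for the YY1 core 10.8% and 1.93%. The SP1 box was in 52.7% of member windows and 49.2% of all windows. The matches are letters in the window and were not tested as binding sites. Of the 12 members with a promoter entry that were higher in Mdr2-KO than in wild type, 5 held the ETS core, 3 the YY1 core, 1 the NRF1 core and 4 the SP1 box. Of the 11 with an entry that were lower, 4 held the ETS core, 1 the YY1 core, 2 the NRF1 core and 6 the SP1 box. No difference between these counts was tested.

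The values are log2 signals, and each difference between groups is printed on the same scale, followed by its standard error (SE). A gene is called higher or lower where limma's moderated test, 2-sided over all 14 arrays and adjusted by the Benjamini-Hochberg method over all 19938 genes, gave an adjusted p under 0.05. Each sample has a code of its own in the labels and is called a liver here, but the labels do not state that each code is a separate animal, so p-values reflect only how far these samples spread. All 77 members lay above background on every array, where background is a log2 signal of 5.49, under which 95% of 1015 olfactory receptor genes lie. Their means over all arrays spanned 6.38 to 9.95, a range that also reflects how well each probe binds. Mrps36, Mrps30 and Mrpl44 had the lowest means, and Mrps21, Mrpl39 and Mrpl40 the highest. Abcb4 was at 9.05 ± 0.20 in Mdr2-KO/IL6-KO, 9.01 ± 0.19 in Mdr2-KO and 10.36 ± 0.03 in wild type (SD, n = 6, 5 and 3), and the labelled Mdr2 genotypes were thus visible as a lower signal. Il6 was under background in every group and checks no label. Fewer cells of a type and less RNA per cell cannot be told apart in these tissue samples. Single arrays stood apart in markers of blood cells. The log2 summed signal of 7 neutrophil markers was 10.90 on array 2 of Mdr2-KO/IL6-KO, where the other arrays of that group were at most 9.07, and 11.98 on array 3 of Mdr2-KO, where the others were at most 8.98. That of 8 T and B cell markers was 10.46 on array 2 of wild type, beside 9.67 and 9.47 on the others. Array 3 of Mdr2-KO and array 2 of wild type had been set apart in earlier work on these data and were also left out together, and each array was left out in turn.

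The median signal over the 77 members lay between 8.15 and 8.34 in the Mdr2-KO/IL6-KO livers, between 8.03 and 8.22 in the Mdr2-KO livers and between 8.04 and 8.19 in wild type, and the groups overlap. Single members differed between the groups in both directions. The 77 genes comprise 32 that were called in at least 1 of the 3 comparisons and 45 that were called in none. The large subunit holds 25 of the 45, the small subunit 19, and Mrps36 is the remaining gene.

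**Figure D1:**
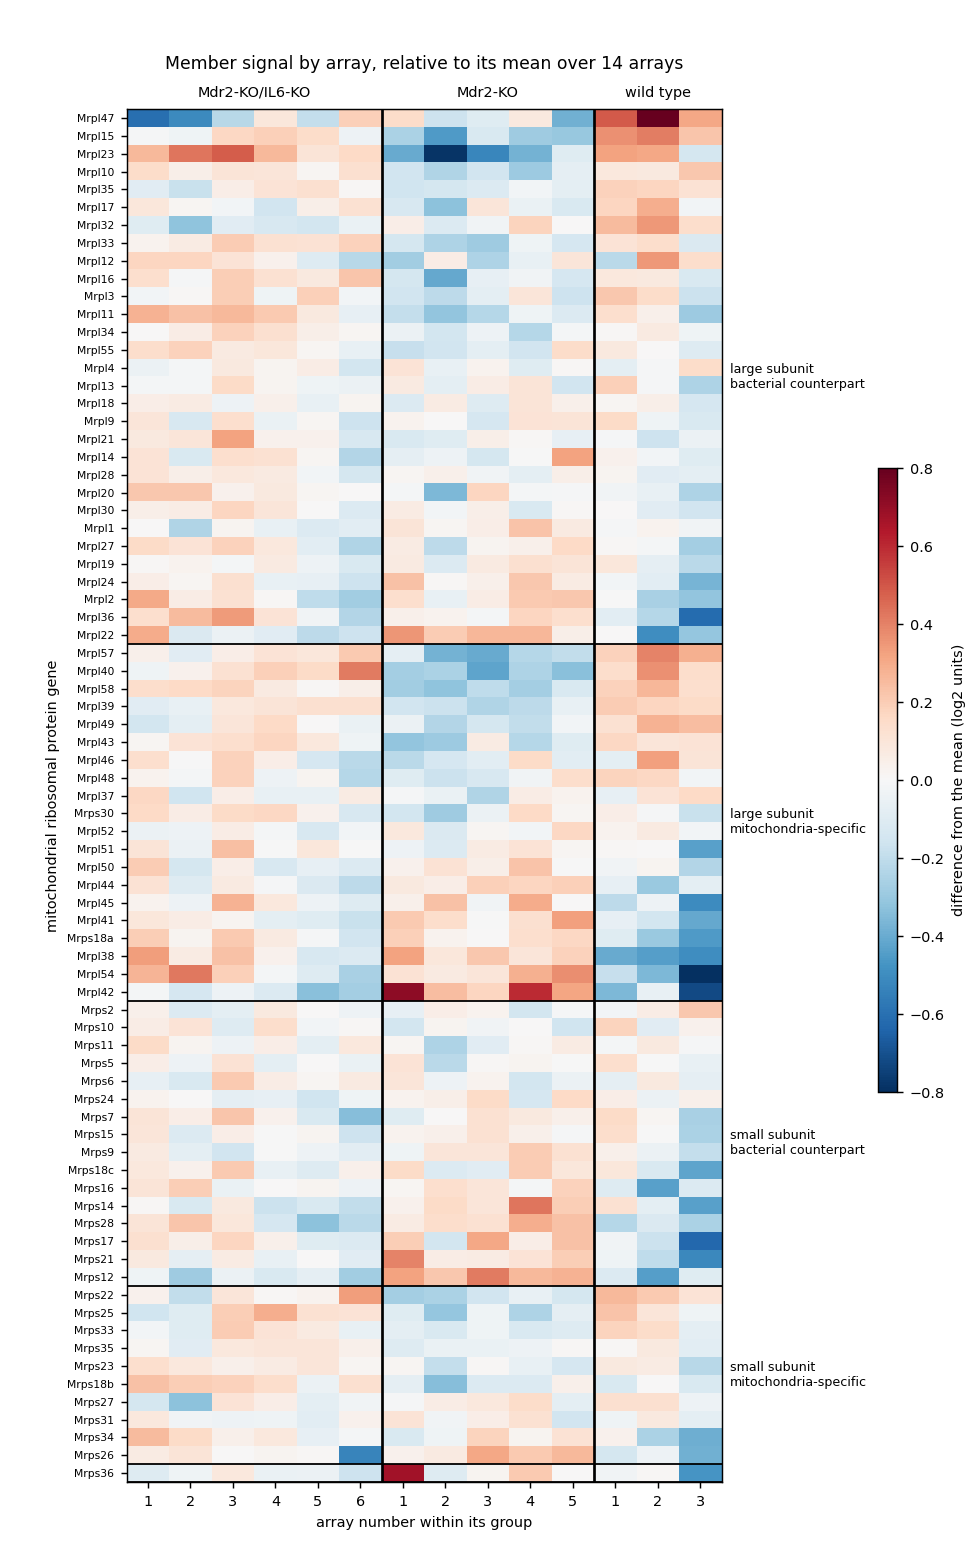
Log2 signal of each of the 77 members (rows, grouped by subunit and by whether a bacterial counterpart exists) in each of the 14 arrays (columns, with the 6 Mdr2-KO/IL6-KO arrays at the left, the 5 Mdr2-KO arrays in the middle and the 3 wild-type arrays at the right), as the difference from the member's mean over all arrays in log2 units. Within the large subunit some rows are red and others blue in the Mdr2-KO columns, and array 3 of wild type is blue in many rows.

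Loss of Mdr2 was compared with wild type first. In Mdr2-KO livers 15 members were higher and 12 were lower, where 8.89% of all genes tested were higher and 12.1% were lower. The 15 are 19.5% and the 12 are 15.6% of the members. The median difference over the members was 0.02 log2 units, beside -0.07 over all genes, and the middle part of the members (first to last quartile) ran from -0.17 to 0.24. The large subunit held 10 of the higher and 11 of the lower members, among 50 genes. In the small subunit 5 of 26 genes were higher and 1 was lower. Under quantile normalization of the deposited values the split was 11 higher and 15 lower, with a median of -0.02, and under centring of each array on its median it was 15 and 12.

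Among the higher members of the large subunit, Mrpl42 encodes a mitochondria-specific protein and had the largest difference. It measured 7.84, 7.37, 7.30, 7.73 and 7.44 in the Mdr2-KO livers, against 6.77, 7.07 and 6.40 in wild type. Every Mdr2-KO value lay above the highest wild-type value. The difference was 0.79 ± 0.14 (a 95% interval of 0.49 to 1.09, 1.73-fold, adjusted p = 0.00178). Mrpl38, a protein of the central protuberance, was at 8.82, 8.58, 8.71, 8.59 and 8.68 in the Mdr2-KO livers, against 8.09, 8.05 and 8.0 in wild type. The groups were far apart and the wild-type arrays lay close together, with a difference of 0.63 ± 0.10 (1.55-fold, adjusted p = 0.000613). Mrpl54, another mitochondria-specific protein, was at 8.63, 8.59, 8.61, 8.80 and 8.89 in the Mdr2-KO livers, against 8.33, 8.15 and 7.63 in wild type. Its groups do not overlap, array 3 of wild type lies lowest, and the difference was 0.66 ± 0.16 (adjusted p = 0.00923). Mrpl22, which lines the exit tunnel, was at 7.49, 7.34, 7.40, 7.41 and 7.18 in the Mdr2-KO livers, against 7.14, 6.64 and 6.83 in wild type, a difference of 0.49 ± 0.12 (adjusted p = 0.01) with no overlap.

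The other 6 higher members of the large subunit differed by less. Mrps18a, one of the trio of Mrps18 paralogs and the one that sits in the large subunit, differed by 0.39 ± 0.09 (adjusted p = 0.01). Mrpl36, the counterpart of a small zinc-binding bacterial protein, differed by 0.38 (adjusted p = 0.0424) and Mrpl41, a mitochondria-specific protein, by 0.37 (adjusted p = 0.0121). Second probes were read from a separate limma fit of all 35557 probes, adjusted over those probes. There the second probe of Mrpl41 showed a difference of 0.08 (adjusted p = 0.446) and the first 0.37 (adjusted p = 0.0173). The probes thus do not give the same call. Mrpl45, which anchors the ribosome at the inner membrane near the tunnel exit, differed by 0.36 (adjusted p = 0.0315). Mrpl44, which carries a ribonuclease III fold, differed by 0.28 (adjusted p = 0.0253), and Mrpl24, a protein near the tunnel exit, by 0.27 (adjusted p = 0.041).

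The 5 higher members of the small subunit all have a bacterial counterpart, 5 of the 16 of that kind. Mrps12, a protein of the decoding centre, was at 7.22, 7.11, 7.31, 7.16 and 7.17 in the Mdr2-KO livers, against 6.78, 6.45 and 6.80 in wild type. The 5 Mdr2-KO values lay within 0.20 log2 units of each other and above all wild-type values. The difference was 0.51 ± 0.09 (95% interval 0.32 to 0.70, 1.43-fold, adjusted p = 0.00139). Mrps21 was at 10.34, 10.01, 10.01, 10.05 and 10.14 in the Mdr2-KO livers, against 9.92, 9.75 and 9.43 in wild type, a difference of 0.41 ± 0.10 (adjusted p = 0.0105) with no overlap between the groups. Mrps17 differed by 0.41 (adjusted p = 0.0336), Mrps28 by 0.37 (adjusted p = 0.0268) and Mrps16 by 0.30 (adjusted p = 0.0227). For Mrps17 the lowest Mdr2-KO value, 6.71, lies below the highest wild-type value, 6.83.

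Array 3 of wild type stood apart from the other wild-type arrays. It was the lowest of them for 11 of the 15 higher members and for 8 of the 12 lower members, and its median over the 77 members was 8.04, beside 8.19 and 8.17 on the other wild-type arrays. Its median over the nuclear oxidative phosphorylation subunits was also the lowest of the wild-type arrays (9.49, beside 9.85 and 9.73), and its median over the olfactory receptor genes the highest (3.95, beside 3.84 and 3.76). Without it 6 members were higher in Mdr2-KO, where 4.96% of all genes were, and these were Mrpl22, Mrpl38, Mrpl42, Mrpl44, Mrps12 and Mrps16. Without it the other 9 had adjusted p-values from 0.066 (Mrpl54) to 0.255 (Mrpl36). Some of these 9 also lost their calls without other arrays. Of the 14 fits that left out an array, Mrpl36 lost its call in 8 and Mrpl24 in 5. Mrpl45 and Mrps17 lost theirs in 4 each, and Mrps28 in 3. With array 3 of wild type left out, 13 members were lower in Mdr2-KO, where 5.78% of all genes were. The median difference over the members was then -0.03 log2 units. Mrpl44 (adjusted p = 0.096) and Mrps16 (adjusted p = 0.0989) were not called without array 2 of wild type. Mrpl22, Mrpl38, Mrpl42 and Mrps12 were called whichever single array was left out. With array 3 of Mdr2-KO and array 2 of wild type left out together, 10 members were higher and 10 lower, where 7.66% and 12.4% of all genes were. Mrpl22 was then not called (adjusted p = 0.0652), nor were Mrpl36 (adjusted p = 0.0568), Mrpl44 (adjusted p = 0.142), Mrps16 (adjusted p = 0.133) and Mrps17 (adjusted p = 0.0622) among the higher members, or Mrpl35 (adjusted p = 0.0667) and Mrpl47 (adjusted p = 0.102) among the lower.

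The lower members are large-subunit proteins but for 1. Mrpl15, a bacterial-type protein of the large subunit core, was at 8.42, 8.23, 8.56, 8.40 and 8.38 in the Mdr2-KO livers, against 9.04, 9.09 and 8.90 in wild type. All Mdr2-KO values lay below all wild-type values, and the difference was -0.61 ± 0.08 (95% interval -0.79 to -0.44, 1.53-fold lower, adjusted p = 0.000239). Mrpl23, which sits at the rim of the exit tunnel, was at 9.26, 8.88, 9.14, 9.29 and 9.56 in the Mdr2-KO livers, against 9.98, 9.98 and 9.52 in wild type. Array 5 of Mdr2-KO lies above array 3 of wild type, and the difference was -0.60 ± 0.14 (adjusted p = 0.00805). Its second probe gave -0.59 (adjusted p = 0.013, beside 0.0129 for the first probe in the fit of all probes), in the same direction. RefSeq lists pseudogene copies of Mrpl23, Mrpl27, Mrpl48 and Mrps36, and how far their probes read the copies was not tested.

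Mrpl40, a mitochondria-specific protein of the central protuberance, was at 9.56, 9.58, 9.41, 9.59 and 9.50 in the Mdr2-KO livers, against 9.97, 10.20 and 9.97 in wild type. The Mdr2-KO values form a tight group below wild type, and the difference was -0.52 ± 0.09 (1.43-fold lower, adjusted p = 0.00162). Mrpl57, also mitochondria-specific, was at 8.31, 8.01, 7.99, 8.16 and 8.19 in the Mdr2-KO livers, against 8.57, 8.79 and 8.67 in wild type, a difference of -0.54 ± 0.09 (adjusted p = 0.000685) with no overlap. Mrpl58, known earlier as Ict1, is a peptidyl-tRNA hydrolase that became part of the large subunit and acts on stalled ribosomes. It was at 8.0, 7.96, 8.08, 8.01 and 8.16 in the Mdr2-KO livers, against 8.47, 8.55 and 8.42 in wild type, a difference of -0.44 ± 0.07 (adjusted p = 0.000481) with no overlap.

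Mrpl47, whose bacterial counterpart lies beside the exit tunnel, was at 6.83, 6.52, 6.59, 6.76 and 6.30 in the Mdr2-KO livers, against 7.18, 7.54 and 6.99 in wild type. The groups do not overlap, and the difference was -0.64 ± 0.18 (adjusted p = 0.0199). Its second probe gave -0.12 (adjusted p = 0.284), and without array 2 of wild type the first probe's adjusted p was 0.0781, so the result for Mrpl47 rests on 1 probe and on that array. Mrps22, a mitochondria-specific protein, was the 1 lower member of the small subunit, at 7.91, 7.93, 8.03, 8.12 and 8.04 in the Mdr2-KO livers, against 8.44, 8.39 and 8.29 in wild type (-0.37 ± 0.09, adjusted p = 0.0136).

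The remaining lower members differed by at most 0.34 log2 units. They were Mrpl39 (-0.34, adjusted p = 0.00318), a protein related to threonyl-tRNA synthetase, Mrpl49 (-0.34, adjusted p = 0.00771), and Mrpl10 (-0.30, adjusted p = 0.00489), which holds the stalk where translation factors bind. Mrpl43 (-0.30, adjusted p = 0.021) and Mrpl35 (-0.26, adjusted p = 0.0216) complete the 12. Without array 1 of wild type the calls of Mrpl35 (adjusted p = 0.0675), Mrpl43 (adjusted p = 0.0688) and Mrps22 (adjusted p = 0.0537) were lost, and that of Mrpl43 was also lost without array 3 of wild type (adjusted p = 0.0597). The calls of Mrpl10, Mrpl15, Mrpl23, Mrpl39, Mrpl40, Mrpl49, Mrpl57 and Mrpl58 held whichever single array was left out.

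**Figure D2:**
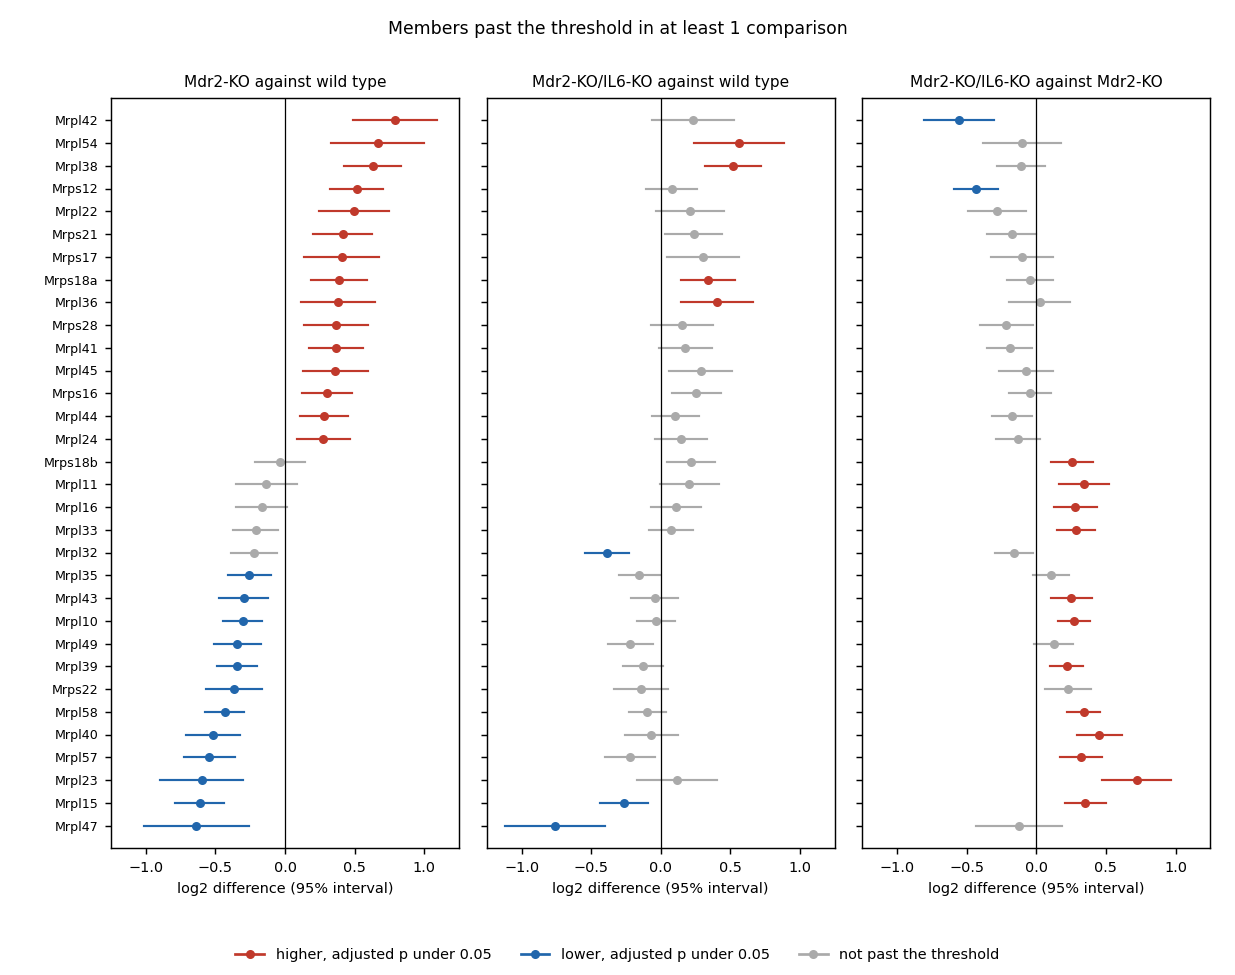
Difference in log2 units (points, horizontal axis) with its 95% interval (lines) for the 32 members called in at least 1 comparison, ordered by their difference between Mdr2-KO and wild type, with 1 panel per comparison and colour marking the call. The left panel holds 15 higher and 12 lower members, the middle panel 4 and 3, and the right panel 12 and 2.

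Loss of both Mdr2 and IL6 was then set against wild type. In Mdr2-KO/IL6-KO livers 4 members were higher and 3 were lower, where 6.96% of all genes tested were higher and 5.33% were lower. The 4 are 5.19% and the 3 are 3.90% of the members, both near the shares among all genes, so these counts do not set the members apart. The median difference was 0.04 log2 units, beside -0.02 over all genes. All 7 are large-subunit genes, and none of the 26 small-subunit members was called in limma's test. This comparison uses the same wild-type arrays as the one above, so the values of the 2 are not independent.

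Mrpl38 was between 8.37 and 8.83 (median 8.54) in the 6 Mdr2-KO/IL6-KO livers, against 8.09, 8.05 and 8.0 in wild type. The groups are clearly apart, and the difference was 0.52 ± 0.09 (95% interval 0.32 to 0.72, 1.43-fold, adjusted p = 0.00216). Mrpl54 was between 8.25 and 8.94 (median 8.60) in the 6 Mdr2-KO/IL6-KO livers, against 8.33, 8.15 and 7.63 in wild type. The lowest Mdr2-KO/IL6-KO value is below the highest wild-type value, and the difference was 0.56 ± 0.15 (adjusted p = 0.0253). Mrpl36 differed by 0.40 ± 0.12 (adjusted p = 0.0401) and Mrps18a by 0.34 ± 0.09 (adjusted p = 0.0223), again with overlap. Without array 3 of wild type only the call of Mrpl38 held among these 4, and the adjusted p was 0.164 for Mrpl54, 0.233 for Mrpl36 and 0.129 for Mrps18a. Mrpl36 lost its call in 8 of the 14 fits that left out an array, and also under centring on array medians (adjusted p = 0.0536).

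Mrpl47 was between 6.08 and 6.88 (median 6.48) in the 6 Mdr2-KO/IL6-KO livers, against 7.18, 7.54 and 6.99 in wild type. The groups do not overlap, and the difference was -0.76 ± 0.17 (1.69-fold lower, adjusted p = 0.00837). Its second probe gave -0.03 (adjusted p = 0.887), and the first probe's adjusted p was 0.0548 without array 2 of wild type. Mrpl32 encodes a zinc-binding protein of the large subunit that a protease of the inner membrane trims after import. It was between 7.50 and 7.77 (median 7.71) in the 6 Mdr2-KO/IL6-KO livers, against 8.07, 8.17 and 7.96 in wild type, a difference of -0.39 ± 0.08 (1.31-fold lower, adjusted p = 0.0034) with no overlap. In Mdr2-KO livers Mrpl32 differed from wild type by -0.23 (adjusted p = 0.0507), just outside the threshold. Mrpl15 was between 8.64 and 8.87 (median 8.75) in the 6 Mdr2-KO/IL6-KO livers, and thus below the wild-type values of 9.04, 9.09 and 8.90, with a difference of -0.26 ± 0.08 (adjusted p = 0.0458). Without array 2 of wild type the adjusted p of Mrpl15 was 0.156, and it lost its call in 8 of the 14 fits that left out an array. With array 3 of Mdr2-KO and array 2 of wild type left out together, 3 members were higher and 1 was lower, where 5.95% and 4.38% of all genes were. Mrpl15 (adjusted p = 0.132), Mrpl47 (adjusted p = 0.0605), Mrpl36 (adjusted p = 0.0692) and Mrps18a (adjusted p = 0.0676) were then not called.

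Mrpl42 and Mrps12, 2 of the most raised members in Mdr2-KO, were not called here. Mrpl42 was between 6.79 and 7.11 (median 7.01) in the 6 Mdr2-KO/IL6-KO livers, within the range of wild type but for its 2 highest values, and differed by 0.23 ± 0.14 (adjusted p = 0.332, 95% interval -0.06 to 0.53). Mrps12 was between 6.61 and 6.86 (median 6.80) in the 6 Mdr2-KO/IL6-KO livers and differed from wild type by 0.08 ± 0.09 (adjusted p = 0.65, 95% interval -0.11 to 0.26). Among the members that were lower in Mdr2-KO, Mrpl23 differed by 0.12 ± 0.13 (adjusted p = 0.656), Mrpl40 by -0.07 ± 0.09 (adjusted p = 0.715) and Mrpl58 by -0.10 ± 0.06 (adjusted p = 0.391), with values that overlap those of wild type. Some other members called in Mdr2-KO were also not called here but differed by more than Mrpl23, Mrpl40 and Mrpl58. Mrpl57 differed by -0.22 (adjusted p = 0.1, 95% interval -0.40 to -0.04) and Mrpl49 by -0.22 (adjusted p = 0.0769, interval -0.38 to -0.06). Of the raised members, Mrps16 differed by 0.26 (adjusted p = 0.0571, interval 0.08 to 0.43) and Mrpl45 by 0.29 (adjusted p = 0.0954, interval 0.06 to 0.52).

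**Figure D3:**
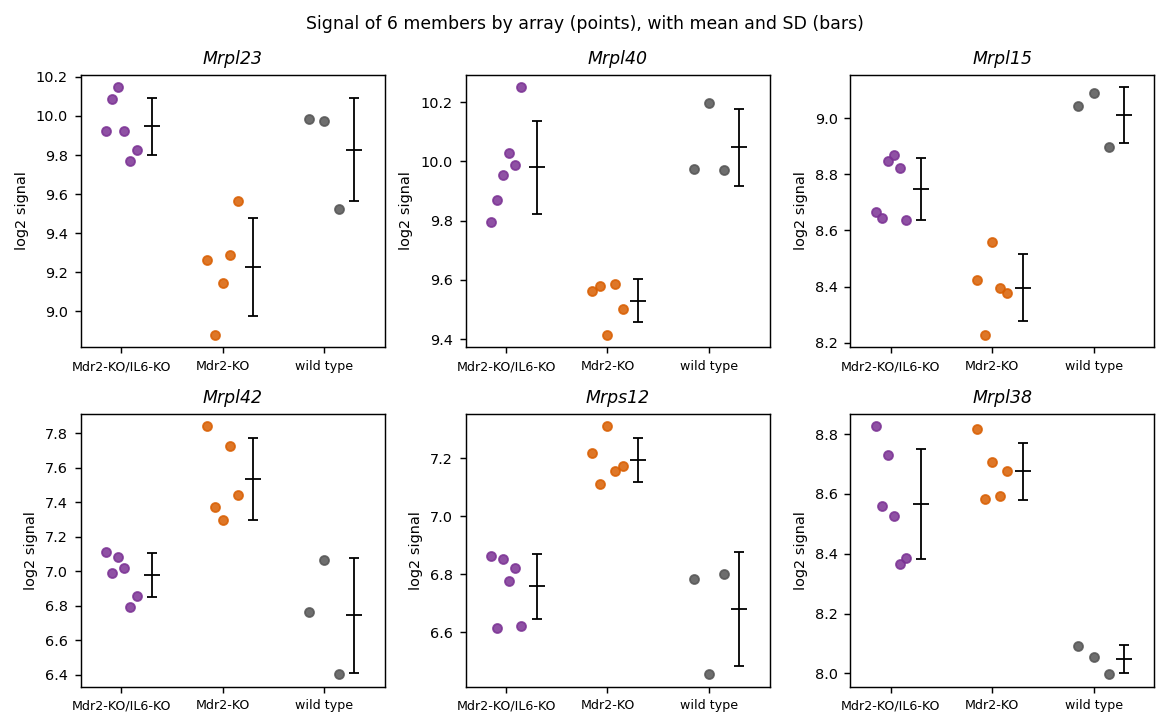
Log2 signal of 6 members in each array (points, vertical axis, a separate scale per panel) for Mdr2-KO/IL6-KO (left), Mdr2-KO (middle) and wild type (right), with the mean and SD of each group as bars. In the Mdr2-KO livers Mrpl23, Mrpl40 and Mrpl15 lie lower, and Mrpl42 and Mrps12 higher, than in the Mdr2-KO/IL6-KO livers, and Mrpl38 lies above wild type in all arrays of both knockouts.

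The direct test of IL6 loss within Mdr2-deficient liver set the Mdr2-KO/IL6-KO livers against the Mdr2-KO livers. In the Mdr2-KO/IL6-KO livers 12 members were higher and 2 were lower, where 5.04% of all genes tested were higher and 3.72% were lower. The 12 are 15.6% of the members. The median difference over the members was 0.02 log2 units, beside 0.06 over all genes. The large subunit held 11 of the higher and 1 of the lower members among its 50 genes, and the small subunit 1 of each among its 26. The Mdr2-KO arrays are shared with the comparison of Mdr2-KO and wild type, so a member that was low in them has its difference in both.

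Mrpl23 had the largest rise. It was between 9.77 and 10.15 (median 9.92) in the 6 Mdr2-KO/IL6-KO livers, against 9.26, 8.88, 9.14, 9.29 and 9.56 in the Mdr2-KO livers, and the groups do not overlap. The difference was 0.72 ± 0.12 (95% interval 0.47 to 0.97, 1.65-fold, adjusted p = 0.00256), and its second probe gave 0.70 (adjusted p = 0.0042). Mrpl40 was between 9.80 and 10.25 (median 9.97) in the 6 Mdr2-KO/IL6-KO livers, against 9.56, 9.58, 9.41, 9.59 and 9.50 in the Mdr2-KO livers. Every Mdr2-KO/IL6-KO value lay above every Mdr2-KO value, and the difference was 0.45 ± 0.08 (1.37-fold, adjusted p = 0.00337). Mrpl15 was between 8.64 and 8.87 (median 8.75) in the 6 Mdr2-KO/IL6-KO livers, against 8.42, 8.23, 8.56, 8.40 and 8.38 in the Mdr2-KO livers, a difference of 0.35 ± 0.07 (adjusted p = 0.00835), again with no overlap.

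Mrpl58, the hydrolase for stalled ribosomes, was between 8.29 and 8.46 (median 8.39) in the 6 Mdr2-KO/IL6-KO livers, against 8.0, 7.96, 8.08, 8.01 and 8.16 in the Mdr2-KO livers. Its groups are narrow and apart, with a difference of 0.34 ± 0.05 (adjusted p = 0.00254). Mrpl10, the base of the stalk, was between 9.53 and 9.66 (median 9.62) in the 6 Mdr2-KO/IL6-KO livers, against 9.37, 9.27, 9.36, 9.22 and 9.45 in the Mdr2-KO livers, a difference of 0.27 ± 0.05 (adjusted p = 0.00872) with no overlap. Mrpl57 was between 8.30 and 8.60 (median 8.46) in the 6 Mdr2-KO/IL6-KO livers, against 8.31, 8.01, 7.99, 8.16 and 8.19 in the Mdr2-KO livers. One Mdr2-KO/IL6-KO array falls just below the highest Mdr2-KO array, and the difference was 0.32 ± 0.07 (adjusted p = 0.0139).

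Mrpl33, a small protein of the large subunit with a bacterial counterpart, was between 6.98 and 7.15 (median 7.07) in the 6 Mdr2-KO/IL6-KO livers, against 6.81, 6.70, 6.67, 6.92 and 6.82 in the Mdr2-KO livers, a difference of 0.29 ± 0.06 (adjusted p = 0.0142) with no overlap. Mrpl33 lies within 2 Mb of Il6 on chromosome 5 in GRCm38.p6, and no other member lies within 10 Mb of Abcb4 or Il6. DNA of another strain carried along with the targeted Il6 allele was not tested. The other higher members were Mrpl11 (0.34, adjusted p = 0.0245), which forms the site where translation factors are switched on, Mrpl16 (0.28, adjusted p = 0.0277), Mrpl43 (0.25, adjusted p = 0.0357), Mrpl39 (0.22, adjusted p = 0.0297) and, in the small subunit, Mrps18b (0.26, adjusted p = 0.0349).

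The 2 lower members were Mrpl42 and Mrps12. Mrpl42 was between 6.79 and 7.11 (median 7.01) in the 6 Mdr2-KO/IL6-KO livers, against 7.84, 7.37, 7.30, 7.73 and 7.44 in the Mdr2-KO livers, so that all Mdr2-KO/IL6-KO values lay below all Mdr2-KO values. The difference was -0.56 ± 0.12 (95% interval -0.81 to -0.31, 1.47-fold lower, adjusted p = 0.0117). Mrps12 was between 6.61 and 6.86 (median 6.80) in the 6 Mdr2-KO/IL6-KO livers, against 7.22, 7.11, 7.31, 7.16 and 7.17 in the Mdr2-KO livers, a difference of -0.44 ± 0.07 (1.35-fold lower, adjusted p = 0.00348), also with no overlap. The next in this direction, Mrpl22, differed by -0.28 (adjusted p = 0.0801).

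Without array 1 of Mdr2-KO, or without array 4 of Mdr2-KO/IL6-KO, 7 members were higher instead of 12. The share of all genes that were higher was then 1.81% and 2.69%. Mrpl11, Mrpl16, Mrpl39, Mrpl43 and Mrps18b lost their calls without array 1 of Mdr2-KO, with adjusted p-values between 0.0583 and 0.0971. These losses were not tied to that array alone. Of the 14 fits that left out an array, Mrps18b lost its call in 9, and Mrpl39 and Mrpl43 in 7 each. Mrpl11 and Mrpl16 lost their calls in 3 each. Mrpl10, Mrpl15, Mrpl23, Mrpl33, Mrpl40, Mrpl57, Mrpl58, Mrpl42 and Mrps12 kept theirs whichever single array was left out. With array 3 of Mdr2-KO and array 2 of wild type left out together, 9 members were higher and 2 lower, where 2.51% and 2.35% of all genes were, and Mrpl11, Mrpl39 and Mrps18b were not called. Centring of each array on its median left 9 members higher and 2 lower, where 3.47% and 3.83% of all genes were. Mrpl16 (adjusted p = 0.0508), Mrpl43 (adjusted p = 0.0684) and Mrps18b (adjusted p = 0.0587) were then not called.

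The values of the 3 Mrps18 paralogs are given side by side, and no difference between them was tested. Mrps18a, the large-subunit form, was between 8.28 and 8.64 (median 8.47) in the 6 Mdr2-KO/IL6-KO livers, 8.62, 8.45, 8.43, 8.56 and 8.59 in the Mdr2-KO livers and 8.33, 8.13 and 7.97 in wild type, and it was called higher in both knockouts against wild type. Its differences were 0.34 in Mdr2-KO/IL6-KO and 0.39 in Mdr2-KO, with -0.05 between the knockouts, and without array 3 of wild type neither was called (adjusted p = 0.129 and 0.0667). Mrps18b, a small-subunit form, was between 9.22 and 9.50 (median 9.43) in the 6 Mdr2-KO/IL6-KO livers, 9.19, 8.92, 9.16, 9.15 and 9.31 in the Mdr2-KO livers and 9.14, 9.27 and 9.14 in wild type, and it was called between the knockouts (0.26) and not against wild type. The values of the knockout groups overlap, and that call was lost in 9 of the 14 fits that left out an array. Mrps18c, the form closest to the bacterial protein, was called in no comparison, and it differed from wild type by 0.18 in Mdr2-KO/IL6-KO and by 0.20 in Mdr2-KO, with -0.02 between the knockouts. These signs are those of Mrps18a, and the 95% intervals of the pair overlap, at 0.19 to 0.59 for Mrps18a and -0.03 to 0.43 for Mrps18c in Mdr2-KO against wild type.

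The 45 members called in no comparison include Mrpl12, the stalk protein that Mrpl10 holds, the tunnel and core proteins Mrpl2, Mrpl3 and Mrpl4, and the small-subunit proteins Mrps2, Mrps5 and Mrps7. Their differences between Mdr2-KO and wild type ranged from -0.25 to 0.37, and the 95% intervals from -0.47 to 0.64. Between Mdr2-KO/IL6-KO and wild type the differences ranged from -0.14 to 0.28, with intervals from -0.34 to 0.48. Between Mdr2-KO/IL6-KO and Mdr2-KO they ranged from -0.27 to 0.23, with intervals from -0.47 to 0.41.

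By structural class, the 20 mitochondria-specific large-subunit members held 7 higher and 6 lower genes when Mdr2-KO was set against wild type. They held 3 and 0 when Mdr2-KO/IL6-KO was, and 5 and 1 between the knockouts. The 30 large-subunit members with a bacterial counterpart held 3 and 5, 1 and 3, and 6 and 0 in the same order of comparisons. The 16 small-subunit members with a bacterial counterpart held 5 and 0, 0 and 0, and 0 and 1, and the 10 mitochondria-specific ones 0 and 1, 0 and 0, and 1 and 0. Among all genes tested, the shares that were higher and lower were 8.89% and 12.1%, 6.96% and 5.33%, and 5.04% and 3.72% in that order of comparisons. Several classes lie near these shares, such as the 3 of 30 large-subunit members with a bacterial counterpart (10%) that were higher in Mdr2-KO against wild type. These counts are descriptions, and no difference between the classes was tested.

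**Figure D4:**
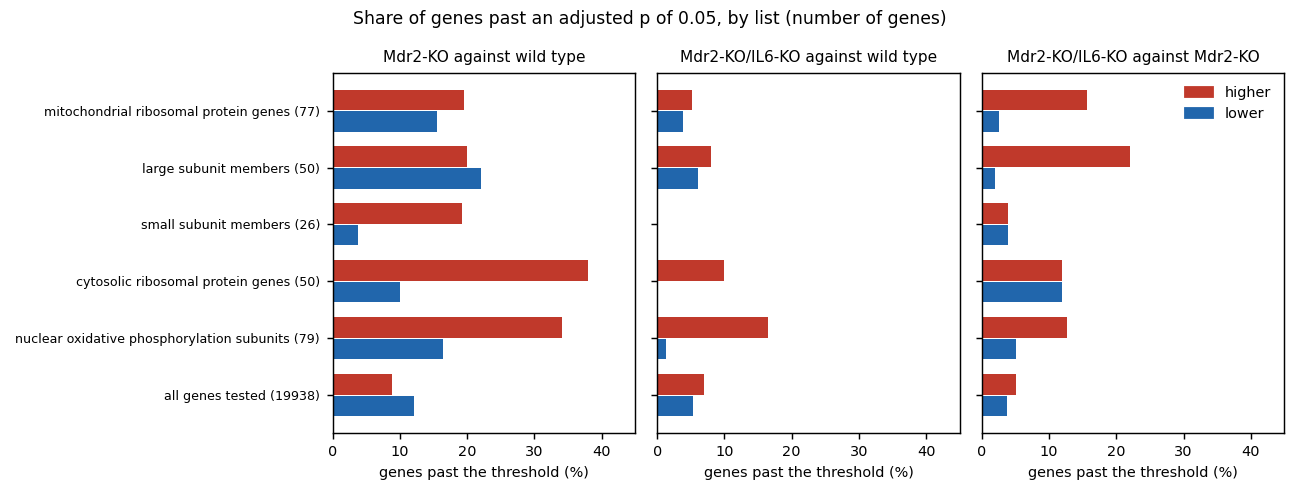
Share of genes (horizontal axis, percent) that were higher (red) or lower (blue) at an adjusted p under 0.05, for the 77 members, their 2 subunits, the cytosolic ribosomal protein genes, the nuclear oxidative phosphorylation subunits and all genes tested, with 1 panel per comparison. Large-subunit members reach 20.0% higher and 22.0% lower in Mdr2-KO against wild type, and 22.0% higher between the knockouts, where 1 of the 50 was lower.

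The cytosolic ribosome and the complexes that mitochondrial translation serves were read for comparison. The counts of these and the following lists stand beside shares of all genes of 8.89% higher and 12.1% lower in Mdr2-KO against wild type, 6.96% and 5.33% when Mdr2-KO/IL6-KO was set against wild type, and 5.04% and 3.72% between the knockouts. Of 50 cytosolic ribosomal protein genes, 19 were higher and 5 lower in Mdr2-KO against wild type (38.0% and 10%), with a median difference of 0.14 log2 units. Of 79 nuclear subunits of oxidative phosphorylation, 27 were higher and 13 lower (34.2% and 16.5%), with a median of 0.11. The mitochondrial ribosomal median in that comparison was 0.02. Array 3 of wild type had the lowest median of the wild-type arrays for both lists. It was 10.05 for the cytosolic ribosome, beside 10.33 and 10.22, and 9.49 for oxidative phosphorylation, beside 9.85 and 9.73. The counts of these lists without that array are not given. In Mdr2-KO/IL6-KO against wild type the cytosolic ribosome had 5 higher and 0 lower genes (median 0.12), and oxidative phosphorylation 13 and 1 (median 0.12). Between the knockouts the cytosolic ribosome had 6 higher and 6 lower (median -0.05), and oxidative phosphorylation 10 and 4 (median 0.00), beside 12 and 2 among the mitochondrial ribosomal members. Whether the lists differ from each other was not tested.

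Other single genes of mitochondrial translation also differed. Whether the calls in this and the following lists hold with arrays left out was not tested. Of 14 translation factors, 2 were higher and 3 lower in Mdr2-KO than in wild type, 14.3% and 21.4% beside 8.89% and 12.1% of all genes. Mtfmt, which formylates the initiator methionyl-tRNA, was at 7.99, 7.94, 8.05, 7.97 and 8.01 in the Mdr2-KO livers, against 8.58, 8.70 and 8.62 in wild type. The groups are apart, with a difference of -0.64 ± 0.11 (adjusted p = 0.000996). Mtfmt was between 8.30 and 8.88 (median 8.56) in the 6 Mdr2-KO/IL6-KO livers, above every Mdr2-KO value, and the difference between the knockouts was 0.55 ± 0.09 (adjusted p = 0.00248). The initiation factor Mtif3 (-0.35, adjusted p = 0.00134) and the ribosome recycling factor Mrrf (-0.27, adjusted p = 0.0227) were also lower in Mdr2-KO than in wild type, while the elongation factor Tufm (0.36, adjusted p = 0.0112) and the initiation factor Mtif2 (0.24, adjusted p = 0.0474) were higher. Against wild type 1 factor was higher in Mdr2-KO/IL6-KO, Taco1 (0.28, adjusted p = 0.0468), a translational activator of a cytochrome c oxidase subunit. Between the knockouts Mtif3 (0.17, adjusted p = 0.048) and the insertase Oxa1l (0.17, adjusted p = 0.0403) were higher beside Mtfmt, and Mtif2 (-0.30, adjusted p = 0.0176) and the release factor Mtrf1 (-0.26, adjusted p = 0.0352) were lower.

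Of 25 assembly factors of the ribosome, 3 were higher and 2 lower in Mdr2-KO against wild type, 12.0% and 8.0% beside 8.89% and 12.1% of all genes. The higher ones were Fastkd2 (0.47, adjusted p = 0.0032), Mterf4 (0.38, adjusted p = 0.0142), which brings an RNA methyltransferase to the ribosome, and the RNA helicase Dhx30 (0.35, adjusted p = 0.00176). The lower ones were Ngrn (-0.49, adjusted p = 0.00112), which acts on the large ribosomal RNA, and Rbfa (-0.28, adjusted p = 0.0495), which matures the small subunit. Higher in Mdr2-KO/IL6-KO than in wild type were 3, Trub2 (0.34, adjusted p = 0.0164), Fastkd2 (0.32, adjusted p = 0.0296) and Dhx30 (0.29, adjusted p = 0.00641), and 1 was lower, Mterf3 (-0.60, adjusted p = 0.000732). Between the knockouts Ngrn (0.39, adjusted p = 0.00418) and Rbfa (0.31, adjusted p = 0.0307) were higher and Mterf3 (-0.35, adjusted p = 0.0152) was lower. None of the 4 measured proteins of the mitochondrial ribosome that carry no Mrp number was called by limma in any comparison.

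Mitochondrial aminoacyl-tRNA synthetases were mostly not called. None of the 19 was called by limma in Mdr2-KO against wild type, where 8.89% of all genes were higher and 12.1% lower. In Mdr2-KO/IL6-KO against wild type 1 was higher, Tars2 (0.26, adjusted p = 0.0418), and 2 were lower, Nars2 (-0.29, adjusted p = 0.0282) and the amidotransferase subunit Gatc (-0.29, adjusted p = 0.0485). Between the knockouts 1 was lower, Rars2 (-0.25, adjusted p = 0.0294). Of 14 genes for transcription and RNA stability of mitochondrial DNA, none was higher in any comparison. Lower in Mdr2-KO against wild type were 3, the transcription factor Tfb2m (-0.41, adjusted p = 0.00282), Fastkd1 (-0.39, adjusted p = 0.0128) and the RNA helicase Supv3l1 (-0.27, adjusted p = 0.00402). These 3 and the exoribonuclease Pnpt1 (-0.22, adjusted p = 0.0388) were lower in Mdr2-KO/IL6-KO against wild type. Between the knockouts Tfam, which packages mitochondrial DNA, differed by -0.35 (adjusted p = 0.023) and the single-strand binding protein Ssbp1 by -0.21 (adjusted p = 0.0477).

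The nuclear regulators of mitochondrial biogenesis, 9 genes including Nrf1 and Ppargc1a, held no call in Mdr2-KO against wild type or between the knockouts. With lists of 8 to 14 genes, single calls lie near the shares of all genes given above. Set against wild type, Mdr2-KO/IL6-KO livers had higher Myc (0.82, adjusted p = 0.0317) and lower Gabpa, the ETS subunit of GABP (-0.27, adjusted p = 0.03). Of 13 mitochondrial chaperones and proteases, 4 were higher in Mdr2-KO than in wild type, Clpx (0.73, adjusted p = 0.0377), Hspe1 (0.47, adjusted p = 0.0123), Lonp1 (0.47, adjusted p = 0.00726) and Hspa9 (0.32, adjusted p = 0.0237), and 1 was lower, the protease subunit Clpp (-0.41, adjusted p = 0.00492). In Mdr2-KO/IL6-KO against wild type 1 was higher, Htra2 (0.28, adjusted p = 0.0306), and 1 was lower, the chaperonin Hspd1 (-0.45, adjusted p = 0.00222). Between the knockouts Clpp was higher (0.26, adjusted p = 0.0371) and Hspd1 lower (-0.28, adjusted p = 0.0264). Of 8 genes read as a measure of mitochondrial mass, Phb2 (-0.26, adjusted p = 0.0106) and Vdac1 (-0.20, adjusted p = 0.0294) were lower in Mdr2-KO against wild type, and the carrier Slc25a5 (0.23, adjusted p = 0.0299) was higher in Mdr2-KO/IL6-KO against wild type. Between the knockouts Vdac2 (0.35, adjusted p = 0.0197), Phb2 (0.31, adjusted p = 0.00405) and Slc25a5 (0.22, adjusted p = 0.023) were higher.

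Markers of the liver's cell types moved with the groups, and their part in the members' differences was not tested. Of 10 hepatocyte markers none was called by limma in any comparison, and their log2 summed signal was 15.60 to 15.83 in Mdr2-KO/IL6-KO, 15.67 to 15.88 in Mdr2-KO and 15.62 to 15.74 in wild type. Of 8 bile duct markers 6 were higher in Mdr2-KO/IL6-KO and 4 in Mdr2-KO than in wild type, with a summed signal of 10.38 to 11.48, 10.38 to 11.16 and 9.27 to 9.90 in the same order of groups, and Cftr under background on average. Of 12 macrophage markers 5 and 4 were higher in those knockouts against wild type and 2 between the knockouts (12.72 to 13.21, 12.53 to 12.97 and 12.51 to 12.67). Of 10 stellate cell and myofibroblast markers 5 and 4 were higher and 1 lower in each knockout (11.20 to 11.89, 11.01 to 11.85 and 11.11 to 11.20). Of 8 T and B cell markers 5 and 4 were lower in the knockouts (8.83 to 9.47, 8.73 to 9.27 and 9.47 to 10.46, the last on array 2 of wild type alone), with Ms4a1 under background. Between the knockouts no marker of bile duct, stellate, T and B or endothelial cells was called, while 2 macrophage markers were higher. The uncalled bile duct markers had a median difference of 0.14 log2 units between the knockouts, and their largest was 0.68. None of the 7 neutrophil markers was called in any comparison (8.67 to 10.90, 8.69 to 11.98 and 8.75 to 8.84, with the upper ends in the knockouts each from the single array named earlier, Ly6g under background), and of 6 endothelial markers 1 was lower in Mdr2-KO against wild type (11.15 to 11.63, 11.21 to 11.44 and 11.37 to 11.65).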

How the data were processed

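RNA from tumour-free liver of 14 mouse samples was hybridised to Affymetrix mouse gene arrays, per the labels' protocols. The deposited table holds log2 values, 1 per probe and array, which the authors produced in Partek by RMA, per the submitters' processing notes. RMA corrects background, normalizes quantiles between arrays and summarises probes, which can shrink a change that most genes share. For versions, genome build, filters and batches, nothing is given in the sources used here. Groups follow the genotype labels.

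The table has 35557 probes, of which the platform annotation gives 21789 a single gene, 1621 several genes and 12147 none. Probes with several genes or none were left out, so Mrpl53, found only on a shared probe, is not a member. After symbols were updated through RefSeq (21698 probes matched) 19938 genes remained, 999 of them with more than 1 probe, and the probe of highest mean stood for the gene. Array medians lay between 6.15 and 6.24. The number of arrays, 6, 5 and 3 per group, and signal over background limit the precision.

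Genes were fitted with limma 3.58.1 in R 4.3.3, as 3 group means with empirical Bayes moderation, and p-values were adjusted by Benjamini-Hochberg over all genes. Second probes of members were read from a separate fit of all 35557 probes, adjusted over those probes. The procedure was tested on simulated data. Tables were read with Python 3.11.15 and plots drawn with matplotlib 3.10.9. Named were, per comparison, up to 12 members with the largest rise and the largest fall among those called. Where fewer than 3 were called in a direction, the 3 with the largest difference in it were named. Also named by the rule were the 3 members of highest and the 3 of lowest mean level, and the Mrps18 trio. Each other list of mitochondrial genes had up to 4 genes named per direction. For the cytosolic ribosome, oxidative phosphorylation and cell type lists no called gene was named. Called members outside that rule (Mrpl24 and Mrps16), and the Mdr2-KO/IL6-KO values of members called in Mdr2-KO, were named after their values were seen. The members and lists were chosen with earlier results of these data known. The alternatives tried were quantile normalization, centring on array medians, leaving out dim genes, the mean of a gene's probes, trend and robust moderation, array weights, only the 2 groups compared, a fold of at least 1.5, each array left out in turn, and Mdr2-KO array 3 and wild-type array 2 left out together.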

Additional observations from a re-analysis of the deposited data

Results flagged for a closer look

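Single arrays that stood apart from the rest of their group were sought in the groups of 5 and 6 arrays for the members named by the rule. Such a value was found in 2 of 66 sets of values, where about 1 in 20 would be found by chance. Mrpl22 measured 7.43 on array 1 of Mdr2-KO/IL6-KO, and the other 5 arrays of that group lay between 6.93 and 7.09. Mrpl32 measured 7.50 on array 2 of Mdr2-KO/IL6-KO, and the other 5 arrays of that group lay between 7.67 and 7.77.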

How the results depend on the processing

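Of the 27 calls in Mdr2-KO against wild type 12 held whichever array was left out, as did 2 of the 7 for the Mdr2-KO/IL6-KO livers against wild type, and 9 of the 14 between the knockouts. When each array was left out in turn, the count of higher members ranged from 6 to 16 in Mdr2-KO against wild type (4.96% to 9.14% of all genes), from 1 to 6 for Mdr2-KO/IL6-KO livers against wild type (4.51% to 7.20%), and from 7 to 13 between the knockouts (1.81% to 6.53%). The count of lower members in Mdr2-KO/IL6-KO against wild type ranged from 1 to 4 (3.63% to 5.78% of all genes). A fold of at least 1.5 left 3 higher and 3 lower members in Mdr2-KO against wild type (2.29% and 1.72% of all genes), 0 and 1 when Mdr2-KO/IL6-KO was set against wild type (2.31% and 1.44%), and 1 and 0 between the knockouts (0.186% and 0.567%). In Mdr2-KO/IL6-KO against wild type 2 members were higher with array weights (8.60% of all genes) and 1 with only the 2 groups compared (5.74%), and 1 was lower with Mdr2-KO array 3 and wild-type array 2 left out together (4.38%). Leaving out that pair gave 10 higher and 10 lower members in Mdr2-KO against wild type (7.66% and 12.4%), without Mrpl22, and 9 and 2 between the knockouts (2.51% and 2.35%). In Mdr2-KO against wild type array weights gave 12 higher and 17 lower members (9.03% and 13% of all genes). The causes were not tested, apart from the fewer genes that a fold threshold can pass. No called member changed direction under these alternatives. No paired analysis was possible because the labels share no replicate numbers between the groups.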
